A study of Solanum lycopersicum with 6 samples.

Results

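Separate steps in the making of tomato fruit aroma were followed at the transcript level: AAT1 for esters, SAMT1 for methyl salicylate and BCAT1 for branched-chain volatiles. The selection rule names 4 genes by their Solyc identifiers: AAT1 (Solyc08g005770.3), SAMT1 (Solyc09g091550.3), BCAT1 (Solyc12g088220.2) and the alcohol dehydrogenase ADH2 (Solyc06g059740). The first 3 have a row among the 8703 genes of the deposited table, and ADH2 has none and was not analysed here. The identifiers place AAT1 on chromosome 8, SAMT1 on chromosome 9 and BCAT1 on chromosome 12. The RefSeq gene table used for names lists AAT1 as a synonym of AAT and lists SAMT1 as SAMT, each on that chromosome. It has no gene called BCAT1, so that name and its enzyme class rest on the selection rule.

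RNA came from fruit pericarp, the wall of the tomato (Solanum lycopersicum), at 38 days after anthesis, the opening of the flower. The jmj7 group is made of transgenic lines and gave 3 libraries, and wild type (WT) gave 3; both groups are in the Ailsa Craig background. The series title describes the targeted gene as a histone demethylase tied to fruit ripening. The number of lines, the kind of transgene, the promoter that drives it and any pooling of fruits are not stated in the labels. The data columns of the transgenic group carry the prefix JQ, which the selection rule equates with jmj7 and which no sample label contains, so every direction below depends on that reading. The table gives no identifier for the targeted gene, and its level was not used to check the labels. Every gene in the table had already been called different by the authors, and so neither presence in it nor a further call is independent evidence. The table's genes hold 10937853 to 15254146 reads per jmj7 library and 7508105 to 9155968 per WT library; the total depth of each library is not stated.

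Ripe tomato aroma is a blend of small molecules made from fatty acids, amino acids, phenolics and carotenoids. AAT1 encodes an alcohol acyltransferase, which joins an alcohol to an acyl-CoA to form an ester. SAMT1 encodes a methyltransferase that turns salicylic acid into methyl salicylate, a wintergreen-scented volatile. Branched-chain aminotransferases move the amino group of leucine, isoleucine and valine, and the keto acids they leave are precursors of branched-chain aldehydes, alcohols and esters. ADH2 interconverts aldehydes and alcohols of the fatty acid route.

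AAT1 and BCAT1 were high in jmj7 fruit, where SAMT1 had no read, whereas WT fruit had SAMT1, little AAT1 and no BCAT1 read. AAT1 rose 1159.8-fold in jmj7, BCAT1 went up at least 33948-fold, and SAMT1 was at least 336-fold lower. The bounds for BCAT1 and SAMT1 set 3 reads over the empty group against the reads pooled over the other group, each divided by the summed deposited size factors (1 scaling number per library). They cover counting error only, and over other scalings of the libraries they ran from 16512 to 79585 for BCAT1 and from 143 to 691 for SAMT1. The measured ratio of AAT1 ran from 564 with total reads to 2715 with size factors computed anew from the table's genes.

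AAT1 drew 44997, 35652 and 36386 reads in the jmj7 libraries, against 51, 43 and 43 reads in the WT libraries. As normalized counts, the reads divided by the size factor of the library, these were 42221, 46943 and 46040.3 in jmj7 and 43.9, 40.3 and 32.9 in WT. Every jmj7 library stood far above every WT library. The mean was 45068 ± 2507 normalized counts in jmj7 and 39.0 ± 5.64 in WT (SD, n = 3 each), which differ by 10.18 ± 0.128 on the log2 scale (SE; edgeR quasi-likelihood adjusted p = 1.93e-47). AAT1 had reads in both groups, so its ratio is a measured one and not a bound. The authors' deposited table gives 10.18 for the same log2 ratio of JQ over WT.

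BCAT1 drew 29318, 22359 and 23603 reads in the jmj7 libraries, against 0 reads in each of the 3 WT libraries. The jmj7 values were 27509, 29439.9 and 29866 normalized counts, a mean of 28938 ± 1256 (SD, n = 3; edgeR adjusted p = 2.12e-45). A count of 0 allows up to 3 reads, or 2.58, 2.81 and 2.29 normalized counts in WT replicates 1, 2 and 3, so a transcript below that level was not detectable at this depth. Of the 171 genes of the table with no WT read, BCAT1 had the highest mean in jmj7, and 36 of them reached 100 reads over the jmj7 libraries.

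SAMT1 drew 0 reads in each jmj7 library, against 484, 418 and 462 reads in the WT libraries. The WT values were 417, 391 and 353 normalized counts, a mean of 387 ± 32.1 (SD, n = 3; edgeR adjusted p = 3.15e-25). In jmj7 replicates 1, 2 and 3 the absence of a read allows up to 2.81, 3.95 and 3.80 normalized counts. The table holds 701 genes with no jmj7 read, 177 of them with at least 100 reads over the WT libraries, and SAMT1 ranked 26 among the 701 by its WT mean.

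All 3 members passed the edgeR test, as did 100% of the 7622 genes tested, so the calls say nothing particular to them. Of the genes tested, 37.2% were higher and 62.8% lower in jmj7. When size factors were computed anew from these genes alone, 47.3% of the calls were higher. The jmj7 and WT libraries did not overlap for any of the 3 members, nor for 99.7% of the genes tested. The labels do not say that replicates came from separate plants, so the p-values may measure technical spread only. With 3 libraries against 3, an exact two-sided permutation test of log2(FPKM + 1) gave p = 0.1 for each member, which is the smallest it can give. On that scale the difference between jmj7 and WT was 8.65 for AAT1, 9.51 for BCAT1 and -4.03 for SAMT1, and it understates the change of genes near 0.

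**Figure D1:**
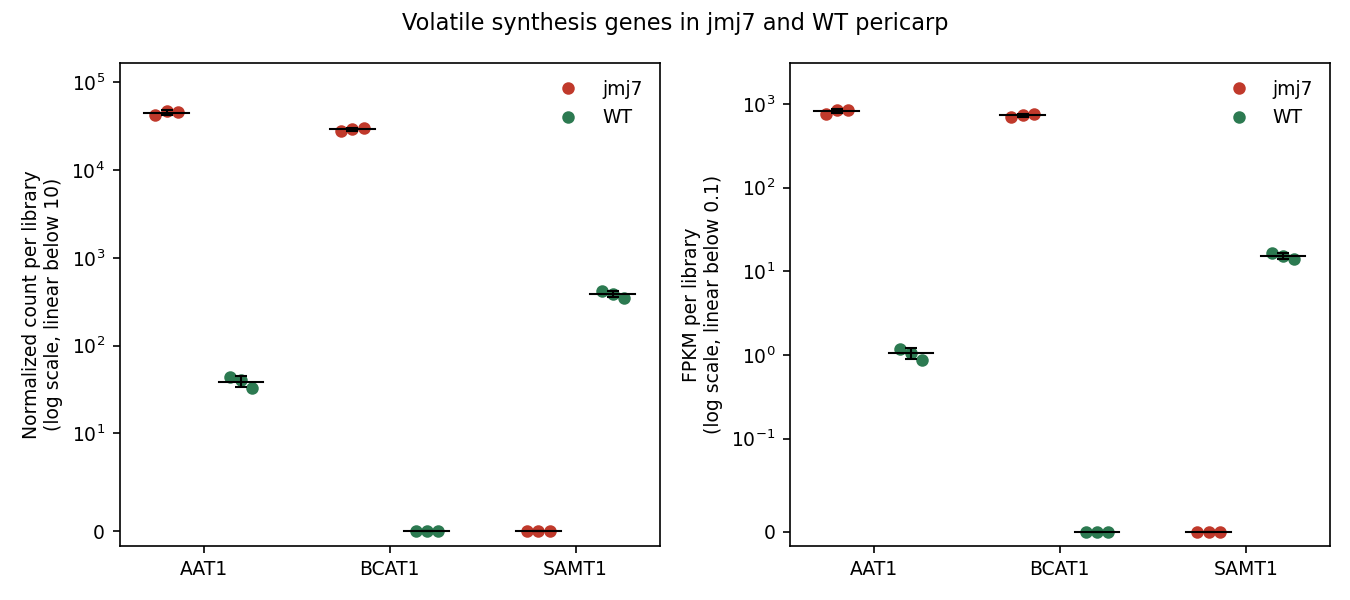
Each point is 1 library, as normalized counts (left) and as FPKM (right), on an axis that is logarithmic except near 0; horizontal lines are group means and bars the SD of 3 libraries, jmj7 left of WT. AAT1 and BCAT1 are high in all 3 jmj7 libraries, and SAMT1 is present in the 3 WT libraries only, with 0 reads in jmj7.

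Levels of different genes were set side by side as FPKM, fragments per kilobase of gene and per unit of library depth, the authors' unit that allows for gene length. The depth behind FPKM differs from the size factors, and ratios of jmj7 to WT on that depth are shifted by -0.56 on the log2 scale, which leaves AAT1 at 9.62. In jmj7, AAT1 had 769, 853 and 838 FPKM, BCAT1 had 695, 742 and 754 FPKM, and SAMT1 had 0. All 3 AAT1 values lay above all 3 BCAT1 values. The ratio of AAT1 to BCAT1 within a library was 1.11, 1.15 and 1.11, or 1.12 ± 0.0236 (SD, n = 3). In WT the order was another: SAMT1 led with 16.7, 15.4 and 14.0 FPKM, AAT1 had 1.19, 1.07 and 0.876 FPKM, and BCAT1 had 0. SAMT1 exceeded AAT1 by 14.1, 14.4 and 15.9 times in the WT libraries. The mean FPKM of AAT1 was 820 ± 44.8 in jmj7 and 1.04 ± 0.158 in WT (SD, n = 3 each). By mean FPKM among the 8703 genes, AAT1 ranked 65 in jmj7 and 6588 in WT. BCAT1 ranked 74 in jmj7 with 730 ± 31.3 FPKM, and SAMT1 ranked 2526 in WT with 15.4 ± 1.38 FPKM. With 3 reads, SAMT1 would have reached at most 0.106 FPKM in any jmj7 library, and BCAT1 at most 0.104 FPKM in any WT library.

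**Figure D2:**
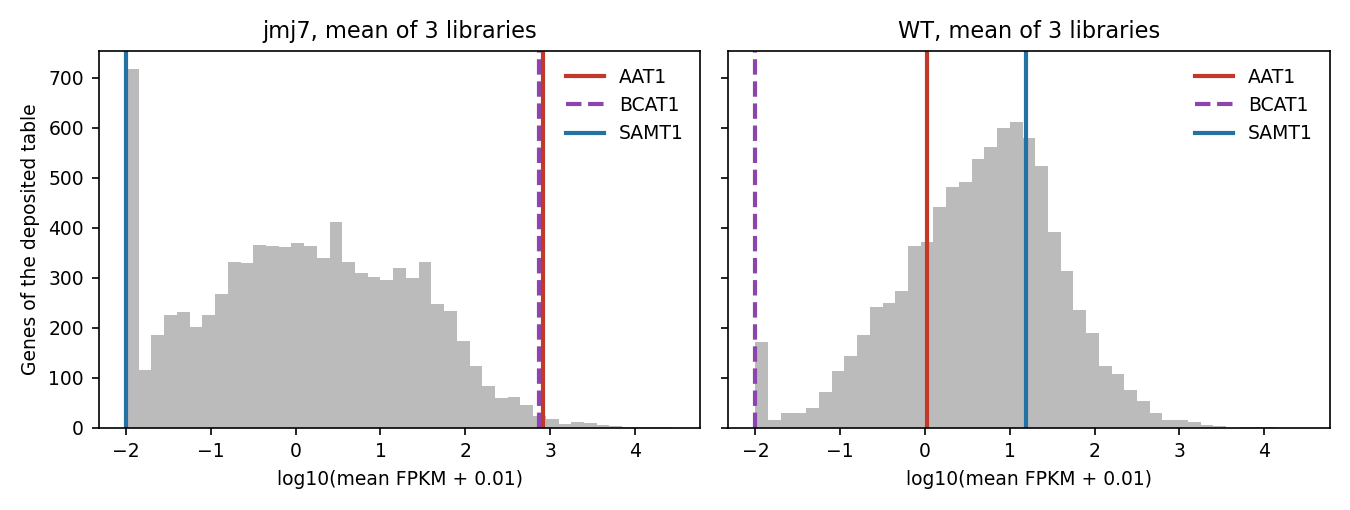
Grey bars count the genes of the deposited table by log10 of mean FPKM plus 0.01, for jmj7 (left) and WT (right); vertical lines mark the 3 members. AAT1 and BCAT1 lie in the upper tail in jmj7, and in WT AAT1 lies near 1 FPKM, BCAT1 at 0 and SAMT1 at 15.4 FPKM, rank 2526 of 8703.

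Both induced genes varied more between jmj7 libraries than most genes of similar abundance. The coefficient of variation (SD over mean) of AAT1 was 5.56% in jmj7, where the median of the 44 genes within 1.5-fold of its level, itself included, was 1.40% and counting alone gives 0.506%. For BCAT1 it was 4.34% in jmj7, beside a median of 1.48% over 58 such genes and 0.631% from counting. Each was lowest in jmj7 replicate 1. That replicate was the lowest for 451 of 1409 higher genes with at least 1000 normalized counts in jmj7, or 32.0%. Replicates 2 and 3 were the lowest for 34.9% and 33.1% of these genes. Each value was already divided by the size factor of its library, which evens out the libraries. These shares therefore cannot show whether replicate 1 differed for some genes, and this was not tested. Among the 6 identifiers listed below for ripening stage, RIN, NOR, PSY1, PG2a and Solyc09g089580.3 were also lowest in jmj7 replicate 1. ACS2 was highest there. Whether these low values share a source was not tested. SAMT1 had a coefficient of variation of 8.30% in WT, beside a median of 5.77% over 1354 genes of like level. These spreads are small against the differences between jmj7 and WT.

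Over the 6 libraries, the gene of the table with the profile closest to AAT1 was LOXC (Solyc01g006540.3), a lipoxygenase gene of the fatty acid volatile route. The Euclidean distance between them in log2(FPKM + 1) was 0.409, the smallest among 8702 genes, and the next gene was at 1.03. LOXC had 859, 854 and 856 FPKM in jmj7, against 1.21, 1.51 and 1.23 FPKM in WT. Its 3 jmj7 values were within a few FPKM of each other, closer together than those of AAT1. LOXC was highest in jmj7 replicate 1, where AAT1 was lowest. The distance mainly matches the levels of the 2 groups and does not show that the genes vary together within a group. The profile closest to BCAT1 was that of Solyc07g062670.1, at a distance of 0.954, with 493, 515 and 489 FPKM in jmj7 and 0 FPKM in WT. The one closest to SAMT1 was Solyc10g054840.2, at a distance of 0.158, with 0 FPKM in jmj7 and 14.9, 15.2 and 14.0 FPKM in WT. The sources used here give no name for these last identifiers. Among the volatile genes listed next, LOXC was also the nearest to BCAT1, at 2.14.

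A list of 25 other genes of aroma synthesis was set beside the members; 7 of them have no row, 2 did not pass the minimum count and 16 entered the test. In jmj7, 7 of the 16 rose and 9 fell, where 37.2% and 62.8% of all genes tested did so. Their median log2 fold change was -2.24, and that of all genes tested was -1.43. The highest of these 16 was LOXC, at 9.91 ± 0.0944 (SE), beside 10.18 ± 0.128 for AAT1; whether these changes differ was not tested. The reference names 9 of the 16, in the fatty acid and phenylalanine routes.

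In the fatty acid route, lipoxygenases add oxygen to fatty acids and the hydroperoxide lyase HPL cleaves the product into short aldehydes. LOXB (Solyc01g099190.3) rose 8.32-fold, with 151056 ± 4863 normalized counts in jmj7 and 18152 ± 201 in WT, while LOXA (Solyc08g014000.3) was 5.65-fold and LOXD (Solyc03g122340.3) 8.00-fold lower in jmj7. LOXF (Solyc01g006560.3) had 4 reads over the jmj7 libraries and 300 over the WT libraries; it neighbours LOXC, and how reads of similar copies were divided is not stated. HPL (Solyc07g049690.3) had 6633, 6386 and 6310.2 normalized counts in jmj7, against 3214, 3089.7 and 3258 in WT. It rose 2.02-fold with the deposited size factors, but with total-read scaling its log2 fold change was -0.02 and the call was lost (edgeR adjusted p = 0.542).

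All 3 tested genes of the phenylalanine route, whose volatiles have floral scents, fell, where 62.8% of all genes tested did so. PAR2 (Solyc01g008550.4), a phenylacetaldehyde reductase gene, had 97.6, 113 and 93.6 normalized counts in jmj7, against 474, 489 and 475 in WT, a change of -2.24 ± 0.112 on the log2 scale (SE; adjusted p = 2.43e-21 in edgeR). PAR1 (Solyc01g008530.3), its relative, had 4, 4 and 5 reads in jmj7, against 49, 48 and 47 reads in WT. AADC1A (Solyc08g068680.3), an aromatic amino acid decarboxylase gene at the entry of this route, had 24, 16 and 12 reads in jmj7, against 116, 95 and 121 reads in WT. AADC1B (Solyc08g068610.3), a related gene, was below the filter with 4 reads over the jmj7 libraries and 33 over the WT libraries. The groups did not overlap for any of these 4 genes, nor for 99.7% of all genes tested. PAR1 lies near PAR2 and AADC1A near AADC1B, and the division of reads between similar copies is open to the same doubt.

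**Figure D3:**
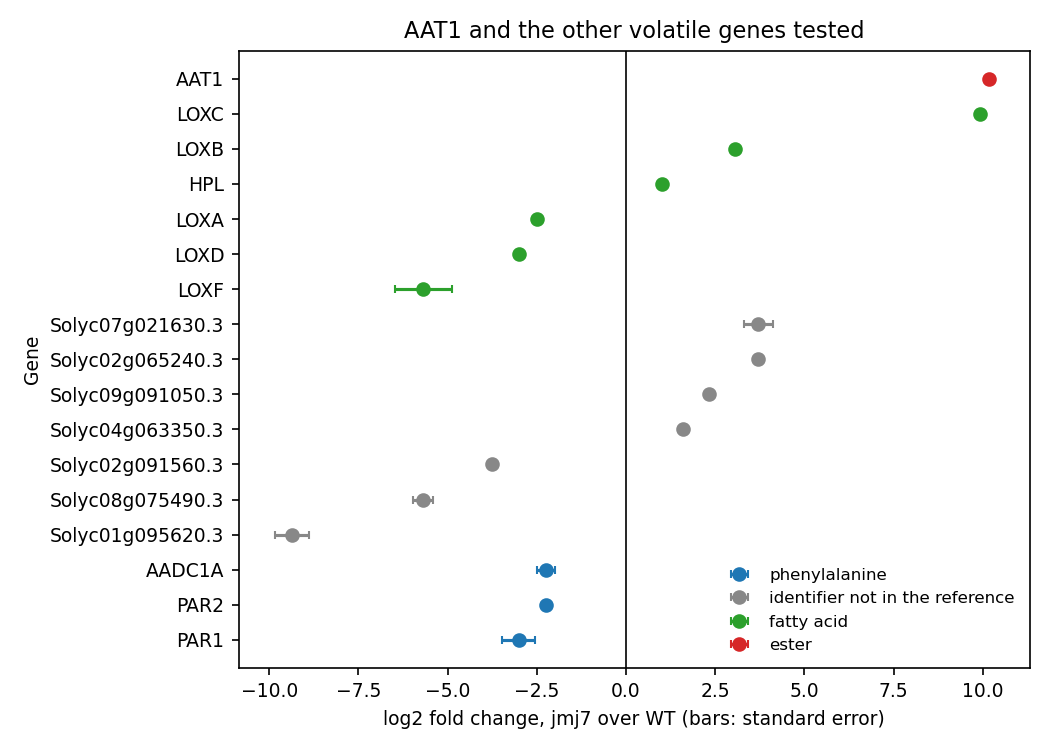
Each point is the log2 fold change of jmj7 over WT for AAT1 and the 16 other volatile genes tested, with its standard error; grey points are identifiers that the reference does not name. AAT1 and LOXC lie near 10, and 9 of the 16 others lie below 0; BCAT1 and SAMT1 are left out because one group had no read.

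The esterase gene CXE1, which breaks down acetate esters, and CTOMT1, a methyltransferase gene that forms guaiacol, have no row and were not analysed here. The same is true of AADC2 and of the carotenoid cleavage genes CCD1A and CCD1B. Of 7 tested list identifiers without a name in the reference, 4 rose and 3 fell, where 37.2% and 62.8% of all genes tested did so. The furthest down was Solyc01g095620.3, with 6, 1 and 2 reads in jmj7 and 2704, 2522 and 3067 reads in WT. The furthest up by fold was Solyc07g021630.3, 13.0-fold higher in jmj7 on 176 reads over the jmj7 libraries and 18 over the WT libraries, and Solyc02g065240.3 was 12.9-fold higher. Solyc02g091560.3, at much higher counts, was 13.5-fold lower in jmj7, with 2448 reads over the jmj7 libraries and 44750 over the WT libraries, and a mean of 278 FPKM in WT. The list files Solyc07g021630.3 and Solyc02g091560.3 under the branched-chain route, and Solyc01g095620.3 and Solyc02g065240.3 under the salicylate route. The reference gives no name that backs these routes. WT fruit, without a BCAT1 read, thus had reads of other identifiers listed for the branched-chain route. These 4 identifiers were picked after their values were seen.

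Genes with nearby identifiers moved both ways. Of 9 other genes of the table within 150 identifier numbers of AAT1, 5 were higher and 4 lower in jmj7 in the authors' deposited table, of 7 near BCAT1, 3 were higher and 4 lower, and of 13 near SAMT1, 7 were higher and 6 lower. Over all 8703 genes, 35.5% were higher and 64.5% lower in the authors' deposited table. The identifier next below AAT1, Solyc08g005760.1, picked after its values were seen, had 163, 141 and 140 reads in jmj7 and 0 reads in WT. It ran at 4.92 ± 0.481 FPKM in jmj7 (SD, n = 3), where AAT1 had 820 ± 44.8. Whether it is a similar copy that shares reads with AAT1 was not tested. Also near AAT1, Solyc08g005630.3 had 48518 reads over the jmj7 libraries and 66 over the WT libraries. Solyc08g005800.3 went the other way, with 271 over the jmj7 libraries and 35965 over the WT libraries. Solyc12g088210.2, next below BCAT1, was higher in jmj7 as BCAT1 was, but had reads in both groups, with 4042 over the jmj7 libraries and 2363 over the WT libraries. Further out, Solyc12g088170.2 went the other way, with 0 reads over the jmj7 libraries and 247 over the WT libraries. Near SAMT1, 7 of the 13 genes were higher in jmj7 and 6 were lower, as SAMT1 was. Solyc09g091560.3, next above it, had 573 reads over the jmj7 libraries and 1812 over the WT libraries, and Solyc09g091530.2 had 16 over the jmj7 libraries and 206 over the WT libraries. Solyc09g091620.2 had 0 reads in jmj7 and 15 over the WT libraries. Solyc09g091510.3 went the other way, with 35337 reads over the jmj7 libraries and 543 over the WT libraries. These neighbours were also picked after their values were seen.

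**Figure D4:**
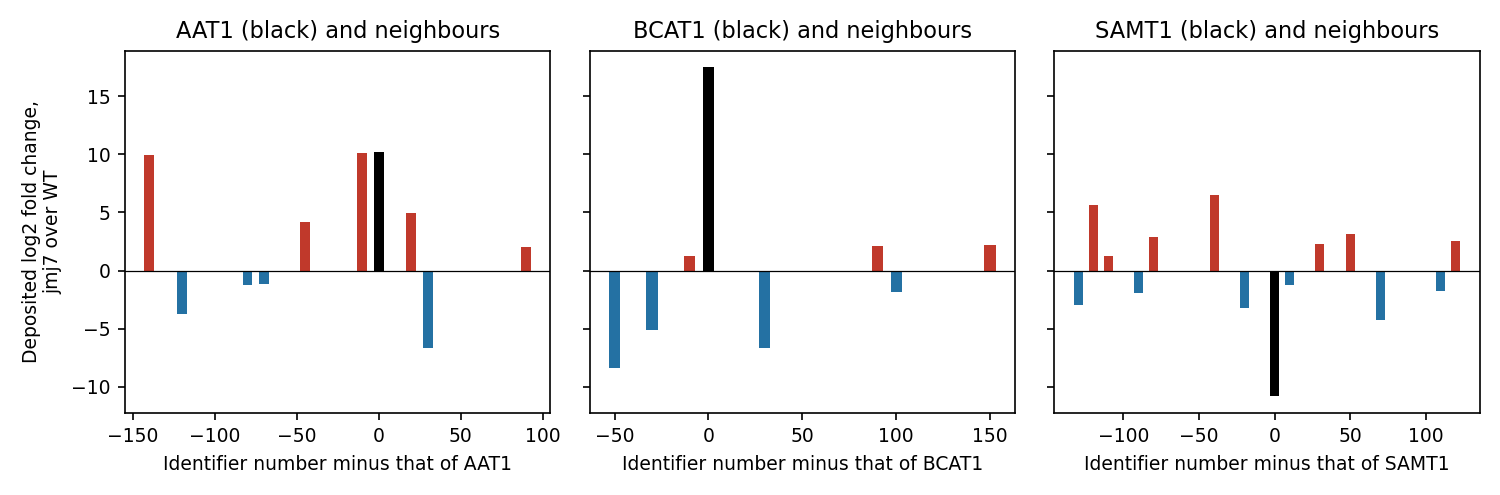
Bars are the authors' deposited log2 fold changes of jmj7 over WT for genes of the table within 150 identifier numbers of AAT1, BCAT1 and SAMT1 (black), by difference in identifier number. Higher and lower genes are mixed around each; bar lengths of genes with no read in 1 group, BCAT1 and SAMT1 included, depend on the fitting method.

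Regulators and enzymes of ripening differed in the same libraries. RIN (Solyc05g012020.3), a MADS-box activator of ripening, had 25146, 25459.6 and 26461 normalized counts in jmj7, against 13.8, 13.1 and 20.6 in WT. NOR (Solyc10g006880.3), a NAC factor of ripening, rose 64.7-fold, and ACS2 (Solyc01g095080.3), an ethylene synthesis gene, rose 49.0-fold. PSY1 (Solyc03g031860.3), the phytoene synthase of fruit, rose 116-fold, and PG2a (Solyc10g080210.2), a pectin-degrading enzyme, had 1721285 reads over the jmj7 libraries and 11 over the WT libraries. These 5 were among 6 identifiers listed for ripening stage, whose summed level was 1635913 to 1726756 normalized counts in the jmj7 libraries and 4465 to 4772 in the WT libraries. Both groups have the same age and no ripening stage is labelled, so stage at sampling and genotype cannot be told apart for AAT1, BCAT1 and SAMT1.

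The epidermis is the outermost cell layer of the fruit wall. Its listed markers with a row were at 0 in jmj7, as SAMT1 was and as were 701 genes, or 8.05%, of the deposited table. Of 5 listed cuticle genes, 2 have no row. Only genes that the authors had called different have a row, so no change is shown for those 2. The other 3 had no read in any jmj7 library and a summed level of 5999 to 6514 normalized counts in the WT libraries. CD1 (Solyc11g006250.2), whose product builds cutin, had 3425, 3046 and 3668 reads in WT, and GPAT6 (Solyc09g014350.3), an acyltransferase gene of cutin synthesis, had 2466, 2054 and 2529 reads in WT. In whole pericarp RNA, fewer cells of a type, less RNA per cell and a different ripening stage cannot be told apart for these genes. The part of the epidermis in the SAMT1 difference was not tested.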

How the data were processed

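Pericarp RNA was sequenced from 3 jmj7 and 3 WT libraries. HISAT2 was used, per the submitters' processing notes; its version, the counter, strand use and genome build are not stated. The authors' deposited table holds read counts per gene and library, and FPKM values, per the file headers. A further deposited signal equals the count divided by 1 size factor per library and is called the normalized count. Log2 fold changes, p-values and adjusted p-values are the authors', per the file headers. Rows were chosen before deposit: every absolute log2 fold change is above 1.00 and every p-value at most 0.0499.

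The test on counts was edgeR's quasi-likelihood test (version 4.0.16, R 4.3.3; filterByExpr with a minimum count of 10, deposited size factors, Benjamini-Hochberg adjustment over 7622 genes, threshold 0.05). The standard error of a fold change comes from fitted means and quasi-likelihood dispersions and is never below the counting error. The fit was also run on simulated counts in which few genes changed, and by modest folds. Here all genes tested were called, so that run does not settle how the fit performs on these data. FPKM levels were compared with a pseudocount of 1. Members with a row were named, with the nearest profile in the table and in the list, list genes whose symbol the reference (assembly SLM_r2.1) has on the identifier's chromosome, and ripening genes. Members and lists were chosen with earlier results of these data known. Alternatives were other scalings, filters, DESeq2 1.42.0, limma 3.58.1, a replicate block and leaving out single libraries. Intervals and floors cover counting error only.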

Additional observations from a re-analysis of the deposited data

How the results depend on the processing

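AAT1, BCAT1 and SAMT1 kept their direction and their call under all 15 alternatives to the edgeR fit; the highest adjusted p was 3.07e-11 for AAT1, 6.33e-12 for BCAT1 and 3.08e-09 for SAMT1, each with limma on log2(FPKM + 1). Most genes tested were called in every setting, and DESeq2 called 3087 of 8703 higher and 5616 lower. A kept call is therefore not particular to the members or to the other volatile genes below. The log2 fold change of AAT1 ranged from 8.65 to 11.41 over these settings. The scalings changed the log2 ratio of size factors between the groups, and so fold changes of genes with reads in both, by 0.33 with TMM, 1.23 with size factors recomputed over the table, -1.04 with total reads and -0.56 with the depth behind the FPKM values, a setting chosen after seeing the data; fitted values of BCAT1 and SAMT1 moved less. The bound for BCAT1 was 42683, 79585, 16512 and 23073 under these scalings in that order, and 101843 with a floor of 1 read; the bound for SAMT1 was 267, 143, 691 and 494, and 1008 with that floor. With 1 library left out, the bound ranged from 21389 to 34979.7 for BCAT1 and from 199 to 353 for SAMT1. The bound for BCAT1 moved by over 1.5 times without WT replicate 3, to 21389, and that for SAMT1 without jmj7 replicate 1, to 199. With pseudocounts of 0.1 and 0.01, the difference in log2 FPKM was 9.49 and 9.61 for AAT1, -7.27 and -10.58 for SAMT1, and 12.83 and 16.16 for BCAT1; with 1 library left out it ranged from 8.59 to 8.70, -4.09 to -3.97 and 9.49 to 9.55 in that order. Of 239 values for the 16 other volatile genes tested, 238 kept direction and call; HPL reversed to -0.025 with total-read scaling, without a call. Total-read scaling gave 2100 higher and 4958 lower calls over all genes, against 2837 and 4785, and recomputed size factors gave 3023 and 3368, so the share of calls that were higher was 29.8% and 47.3%, against 37.2%.

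No pairing of the libraries by replicate number was seen. The correlation of deviations from the group means, over 4673 genes, was -0.028, 0.0224 and -0.0109 for the same-numbered libraries. With 3 libraries per group, each set against its own group mean, such values cannot exclude a pairing. With the replicate block, the log2 fold change of AAT1 was 10.18, and 2837 genes were called higher and 4785 lower, the counts without it; not every jmj7 library correlated best with its own number. FPKM values and bounds come from no fit, so the block does not apply to them. Depth limits BCAT1 and SAMT1 where a group had no read, and AAT1 in WT, whose coefficient of variation of 14.4% is near the 14.8% that counting alone gives.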
